A study of Rattus norvegicus with 20 samples.

Results

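The 12 irradiation-associated mammary adenocarcinomas were ordered by a cell division score, and the 6 cancers with the highest score were set against the 6 with the lowest. The cancers were chosen by the readout itself: the score was the mean, over Plk1, Aurka, Ccnb2 and Rrm1, of the log2 processed signal minus the 75th percentile of the same array, taken on the brightest probe of each gene. These 12 samples belong to a series of 20, in which the other 8 are normal mammary tissue. Division itself was not measured, so the groups are called high-score and low-score cancers. The score comes from the same arrays as all other values, so a difference between the groups describes genes that vary together with the 4 score genes in these 12 samples.

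All tissues came from female Sprague-Dawley (Jcl:SD) rats given 4 Gy of Cs-137 gamma rays to the whole body at 7 weeks of age and then followed for 30 weeks. Obesity-prone (OP) and obesity-resistant (OR) rats had been separated by body weight on food with 45 kcal% fat, and lean controls (LC) ate food with 10 kcal% fat. The 6 high-score cancers were 3 OP, 2 OR and 1 LC, and the 6 low-score cancers were 3 OP, 1 OR and 2 LC. The 8 normal tissues were 3 OP, 2 OR and 3 LC. Per the design text, the carcinomas had been picked for uniform histology, free of necrosis and of marked infiltration by other cells. The labels leave unsaid whether each sample came from an animal of its own, so p-values reflect only how these samples spread, which may be technical. Between 61.8% and 79.6% of probes gave signal well above background in the cancers, compared with 87.9% to 97.7% in normal tissue. Luminal keratins Krt8 and Krt18 were well above background in all 12 cancers.

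A cell that divides copies its DNA in S phase and separates the copies in mitosis, and the genes for each step are transcribed in turn. Rrm1 encodes the large subunit of ribonucleotide reductase, which makes the deoxynucleotides for DNA synthesis. Ccnb2 is a B-type cyclin that activates Cdk1 at entry into mitosis, Plk1 is a kinase of mitotic entry and chromosome separation, and Aurka is a kinase of the spindle poles. Many mitotic genes are repressed in resting cells through a promoter element known as the cell cycle genes homology region, whose core reads TTTGAA or TTTAAA, often beside CCAAT boxes bound by NF-Y. Many S-phase genes instead carry E2F sites, of which TTTCCCGC and TTTGGCGC are well-known forms.

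The promoters of the 4 score genes and of 4 further cell division genes are shown. The latter had the smallest unadjusted p (limma, high-score against low-score) among cell division genes with a RefSeq promoter, whatever their motifs. Each stretch runs from 140 bases before the annotated transcription start to 30 after it, 5′ to 3′ on the strand of the gene, from RefSeq on the GRCr8 rat assembly. Capitals mark the CCAAT box and both forms of the repressor core on either strand, so ATTGG stands for a CCAAT box of the opposite strand, and TTCAAA likewise for the first core.

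Plk1, chr1:186147518-186147687, plus strand: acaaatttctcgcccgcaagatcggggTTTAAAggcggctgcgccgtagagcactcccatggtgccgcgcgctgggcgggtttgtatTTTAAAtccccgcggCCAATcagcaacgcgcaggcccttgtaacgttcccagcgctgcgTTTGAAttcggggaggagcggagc

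Aurka, chr3:181560740-181560909, minus strand: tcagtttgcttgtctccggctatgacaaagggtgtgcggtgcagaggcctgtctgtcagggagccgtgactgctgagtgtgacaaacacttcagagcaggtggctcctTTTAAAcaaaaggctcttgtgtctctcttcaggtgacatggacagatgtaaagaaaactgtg

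Ccnb2, chr8:79981629-79981798, minus strand: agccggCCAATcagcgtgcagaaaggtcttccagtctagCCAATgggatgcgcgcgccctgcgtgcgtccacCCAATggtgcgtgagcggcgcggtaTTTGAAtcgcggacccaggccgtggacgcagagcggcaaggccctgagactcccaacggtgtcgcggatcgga

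Rrm1, chr1:166235764-166235933, plus strand: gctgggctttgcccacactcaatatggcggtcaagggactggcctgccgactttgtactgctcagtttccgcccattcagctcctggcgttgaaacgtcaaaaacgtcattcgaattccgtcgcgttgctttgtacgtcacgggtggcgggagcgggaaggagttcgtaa

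Ccnb1, chr2:33655196-33655365, minus strand: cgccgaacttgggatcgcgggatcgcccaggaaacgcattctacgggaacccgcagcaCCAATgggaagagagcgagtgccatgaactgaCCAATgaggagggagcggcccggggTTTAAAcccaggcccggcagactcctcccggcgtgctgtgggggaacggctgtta

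Cdk1, chr20:19265153-19265322, plus strand: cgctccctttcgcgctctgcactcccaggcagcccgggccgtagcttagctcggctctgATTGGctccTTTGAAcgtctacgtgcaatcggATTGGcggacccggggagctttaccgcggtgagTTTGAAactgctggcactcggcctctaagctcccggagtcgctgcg

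Birc5, chr10:103572006-103572175, plus strand: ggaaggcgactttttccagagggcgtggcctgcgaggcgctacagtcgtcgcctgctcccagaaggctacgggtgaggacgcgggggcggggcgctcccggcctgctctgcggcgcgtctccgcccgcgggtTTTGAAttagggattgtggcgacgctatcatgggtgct

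Kif22, chr1:191080849-191081018, minus strand: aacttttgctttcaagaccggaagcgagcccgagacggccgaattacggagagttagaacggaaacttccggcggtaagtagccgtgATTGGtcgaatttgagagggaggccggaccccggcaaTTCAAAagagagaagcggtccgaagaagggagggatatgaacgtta

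Ccnb2 held 3 CCAAT boxes at -134, -101 and -68 and TTTGAA at -43, counted from the transcription start. Ccnb1, cyclin B1, held CCAAT at -82 and -50 and TTTAAA at -25. Cdk1 held CCAAT on the opposite strand at -81 and -49, and TTTGAA at -72 and -16. Rrm1 held none of the motifs in the stretch shown. Of the 55 cell division genes tested, 43 matched a RefSeq promoter table, with 45 promoters of 250 bases before to 50 after the start. CCAAT together with TTTGAA or TTTAAA lay in 47.8% of the 23 promoters of mitotic cyclin, kinase, spindle and kinetochore genes, in 4.55% of the 22 promoters of replication and nucleotide synthesis genes, and in 11.3% of all 33465 promoters. TTTGAA, with or without CCAAT, lay in 60.9%, 9.09% and 18.3% of these 3 sets. TTTCCCGC lay in 0 of the 23, in 2 of the 22 and in 0.974% of all promoters, and TTTGGCGC in 1 of the 23, in 1 of the 22 and in 0.493% of all. Among the 6094 promoters of all tested genes, CCAAT with either core lay in 7.84% and TTTGAA in 12.4%. TTTCCCGC lay in 1.62% of them and TTTGGCGC in 0.738%. These matches are a description of the letters in these windows. Annotated starts were taken as given, and whether each stretch, that of Aurka above all, holds the promoter in use was not tested.

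The 4 score genes moved together across the cancers, with pairwise Pearson r from 0.84 to 0.94 over 12 arrays that each share 1 scaling for the 4 genes. The score was 1.80 in OR cancer 3, 1.40 in OP cancer 6, 1.20 in OP cancer 2, 1.18 in OR cancer 2, 1.18 in OP cancer 5 and 1.08 in LC cancer 1. It was 0.89 in OR cancer 1, 0.76 in LC cancer 3, 0.56 in OP cancer 4, 0.41 in LC cancer 2, -0.13 in OP cancer 1 and -0.22 in OP cancer 3. The high-score cancers thus lay close together, apart from OR cancer 3, and the low-score cancers were spread more widely, averaging 1.31 ± 0.26 and 0.38 ± 0.46 (SD, n = 6 each). The members nearest the division, LC cancer 1 and OR cancer 1, differed by only 0.19. On background-corrected, quantile-normalized values the same 6 cancers scored highest. Plk1 averaged 4.03 ± 0.36 in high-score and 2.96 ± 0.47 in low-score cancers, Ccnb2 0.61 ± 0.22 and -0.50 ± 0.61, Rrm1 0.041 ± 0.31 and -0.79 ± 0.49, and Aurka 0.54 ± 0.33 and -0.17 ± 0.45 (log2 relative to the 75th percentile). On the scored probes Aurka alone of the 4 overlapped between the groups, which the rule itself tends to separate. The lowest high-score and highest low-score values were 3.66 and 3.65 for Plk1, and -0.32 and -0.35 for Rrm1. A dimmer Rrm1 probe overlapped (lowest high-score -3.53, highest low-score -3.23), while a further Rrm1 probe and a further Plk1 probe did not.

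**Figure D1:**
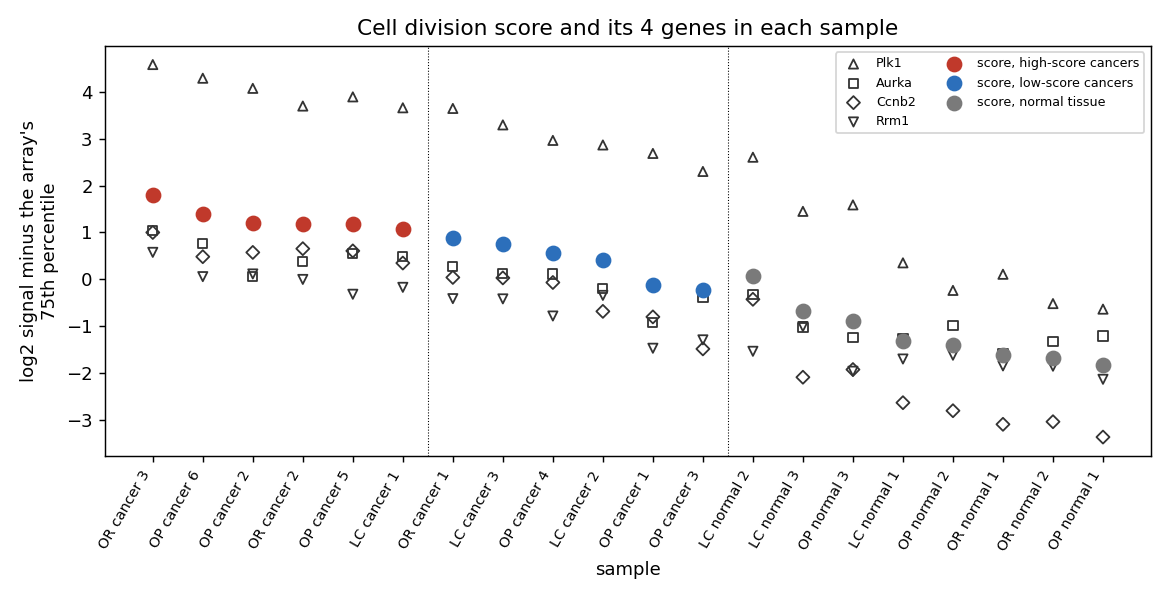
The score (filled circles) and its 4 genes (open symbols) in each sample, as log2 processed signal minus the 75th percentile of the array, with high-score cancers on the left, low-score cancers in the middle and normal tissue on the right. The division at 6 cancers cuts a gradient, and LC normal 2, at 0.078, lies above the 2 lowest-scoring cancers.

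Normal mammary tissue scored -1.17 ± 0.64 (SD, n = 8), from -1.84 in OP normal 1 to 0.078 in LC normal 2. The rule made no use of the obesity group. The score averaged 0.66 ± 0.71 in the 6 OP cancers and 1.02 ± 0.47 in the 6 OR and LC cancers, a difference of -0.35 (exact permutation test over 924 arrangements, two-sided, p = 0.335). OP cancers held both the second highest score and the 2 lowest, and the groups overlapped widely. The share of probes well above background was 71.0% ± 7.4 in high-score and 66.8% ± 5.2 in low-score cancers (exact permutation test, two-sided, p = 0.279). Slide 4 held 4 OP cancers, of which 2 were high-score and 2 low-score, so differences within it are between samples of 1 slide and 1 obesity group. On slide 5 both high-score cancers were OR and both low-score cancers LC, and there score and obesity group cannot be told apart.

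Levels below are log2 values after normexp background correction and quantile normalization, and differences are high-score minus low-score. Across all genes, no gene passed an adjusted p of 0.05 in either direction (0% of 29793, limma with Benjamini-Hochberg adjustment). At an unadjusted p under 0.05, 965 were higher (3.24%) and 960 lower (3.22%) in high-score cancers. The gene nearest to the threshold was Snrpa, a protein of the U1 particle of the splicing machinery. Its lowest, median and highest levels were 10.35, 10.53 and 10.74 in high-score cancers, against 9.77, 9.92 and 9.95 in low-score cancers. The groups did not overlap, and the difference was 0.65 (SE 0.08, 1.57-fold, limma adjusted p = 0.0515). The adjusted p was 0.0349 without LC cancer 1 and 0.0444 with no filter on dim probes. Next in rank among genes with a symbol were Ddx56, a helicase of ribosome assembly, at 11.53 ± 0.07 and 11.20 ± 0.09, and Dhodh, an enzyme of pyrimidine synthesis, at 9.48 ± 0.16 and 9.05 ± 0.10 (SD, n = 6 each, limma adjusted p = 0.478 for both). Neither overlapped between the groups. In all, 96 genes were higher (0.322%) and 33 lower (0.111%) with no overlap.

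Most cell division genes had higher levels in the high-score cancers. Of 124 genes in lists for DNA replication, nucleotide synthesis, mitotic cyclins and kinases, and spindle and chromosome segregation, 55 could be tested. The difference was above 0 in 53 of the 55, against 47.8% of all genes, with a median of 0.42 against -0.0073 over all genes. None passed the adjusted threshold. At an unadjusted p under 0.05, 39 were higher (against 3.24% of all genes), and 6 were higher without overlap (against 0.322%). The lists share their programme with the score genes, so this count follows in part from how the groups were made. The mean level over the 55 genes was 10.08 to 10.64 in high-score cancers and 9.58 to 10.00 in low-score cancers, without overlap. Whether more cells were dividing or each dividing cell held more of these RNAs cannot be told apart in bulk tissue.

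**Figure D2:**
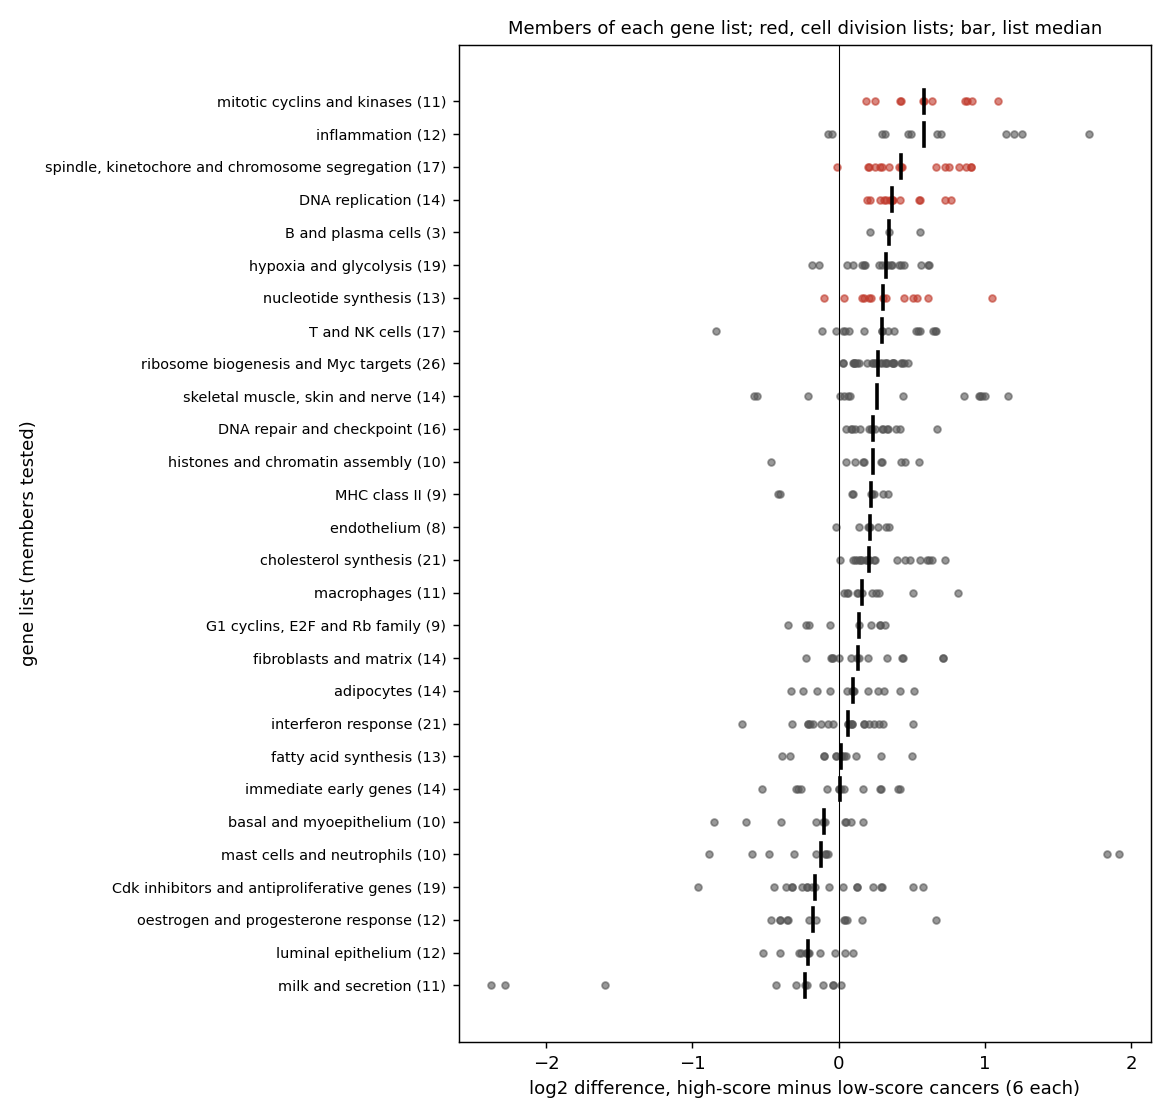
Difference of each tested member (points) of 28 gene lists between 6 high-score and 6 low-score cancers, in log2 units, with the list median as a bar and cell division lists in red. Mitotic cyclins and kinases have the highest median, 0.58, and the 3 members far to the left are the milk genes Wap, Glycam1 and Csn2, at -2.38, -2.28 and -1.59.

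Of the 4 lists mitotic cyclins and kinases had the highest median, 0.58, with all 11 tested members above 0. Ccnb1 had a lowest, median and highest level of 10.45, 10.64 and 11.41 in high-score cancers, against 8.88, 9.67 and 10.32 in low-score cancers. Every high-score cancer lay above every low-score cancer, and OR cancer 3 stood highest. The difference was 1.09 (SE 0.23, 2.13-fold, limma adjusted p = 0.478) and it was 1.23 among the OP cancers of slide 4. Its partner Cdk1, the kinase that drives mitosis, had 11.96, 12.61 and 13.04 in high-score cancers and 11.07, 11.73 and 11.97 in low-score cancers. LC cancer 1 alone of the high-score cancers lay within the low-score range. Ccna2, the cyclin of S phase and early mitosis, differed by 0.88, Cdc20, which activates the ubiquitin ligase that ends mitosis, by 0.86, and Foxm1, a transcription factor of mitotic genes, by 0.63. Aurkb, the kinase that corrects chromosome attachment, averaged 8.50 ± 0.23 in high-score and 7.92 ± 0.23 in low-score cancers (SD, n = 6 each) with no overlap. Wee1, which holds Cdk1 inactive, had the smallest difference of the 11, at 0.18.

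Genes of the spindle and kinetochore were close behind, with 16 of 17 above 0 and a median of 0.43. Birc5, survivin, which works with Aurkb on chromosomes, had 9.75, 10.21 and 10.64 as lowest, median and highest in high-score cancers, and 8.79, 9.41 and 9.65 in low-score cancers. Kif22, a motor that moves chromosome arms, had 9.97, 10.29 and 10.66 in high-score cancers and 8.74, 9.40 and 9.88 in low-score cancers. For both genes the groups were separate. Their differences were 0.87 (SE 0.18) and 0.90 (SE 0.19), and 0.93 and 0.997 within slide 4. Nuf2 and Spc25, parts of the complex that grips microtubules at the kinetochore, differed by 0.75 and 0.83, and Pttg1, securin, by 0.90. Hmmr was the only member below 0, at -0.01. Kpna2, an importin that also serves spindle assembly, was in neither mitotic list and averaged 11.64 ± 0.23 in high-score and 10.89 ± 0.44 in low-score cancers, without overlap.

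All 14 tested DNA replication genes were above 0, with a median of 0.36. Orc1, the origin recognition subunit, averaged 8.82 ± 0.46 in high-score and 8.05 ± 0.20 in low-score cancers, and Pcna, the sliding clamp, 10.83 ± 0.32 and 10.27 ± 0.16 (SD, n = 6 each). Fen1, which trims Okazaki fragments, averaged 13.85 ± 0.27 and 13.30 ± 0.16. In each of the 3 genes 5 of the 6 high-score cancers lay above all low-score cancers. Nucleotide synthesis genes had 12 of 13 above 0 and a median of 0.30. Rrm2, the small subunit of ribonucleotide reductase, had 8.52, 9.51 and 10.24 in high-score cancers against 7.77, 8.40 and 8.95 in low-score cancers, a difference of 1.05 (SE 0.27, 2.07-fold). Rrm2 differed by 1.46 within slide 4, the largest of 24 alternatives, which ran from 0.20 to 1.46. Tyms, which makes thymidylate, differed by 0.54 and Shmt2, of mitochondrial one-carbon metabolism, by 0.61. Over the alternatives Tyms ran from 0.028 to 0.98 and Shmt2 from -0.0997 to 0.71. On slide 1, with 1 cancer of each kind, the nucleotide synthesis median was 0.028. Impdh2, of guanine nucleotide synthesis, was at -0.10.

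The 6 against 6 division discards the gradient, so the score was also fitted as a continuous measure over the same 12 cancers. By this fit 163 genes rose with the score (0.547%) and 45 fell (0.151%) at a limma adjusted p under 0.05, of which 42 and 5 have a symbol. Of the 55 cell division genes 16 rose and none fell. Ccnb1 rose by 1.13 per unit of score (SE 0.09, limma adjusted p = 0.000218) and Rrm2 by 1.11 (SE 0.15, limma adjusted p = 0.00392). The slopes of Cdc20, Spc25 and Cdk1 were 1.02, 0.96 and 0.93. Outside the cell division lists, Snrpa rose by 0.51, the nuclear transport GTPase Ran by 0.51, the lamin Lmnb1 by 0.44 and Acat2, a thiolase at the start of sterol synthesis, by 0.71. Among genes with a symbol, the levels most like the score over the 12 cancers were those of Fancd2, of interstrand crosslink repair (Pearson r = 0.97), Ccnb1 (0.97), Aurkb (0.96), Kif22 (0.96), Spc25 (0.96), Hrob (0.96), Spag5 (0.94), Cdk1 (0.94), Nuf2 (0.94) and Ncapg2 (0.93). They share arrays with the score.

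The 5 named genes that fell with the score were Lef1, a transcription factor of Wnt signalling, at -0.996 per unit, Spats2l at -0.96, Apbb1, an adaptor of the amyloid precursor protein, at -0.80, Arhgef2, an activator of RhoA, at -0.57, and Blcap at -0.34. Apbb1 averaged 11.01 ± 0.41 in high-score and 11.74 ± 0.39 in low-score cancers. Spats2l averaged 9.98 ± 0.57 and 10.89 ± 0.35 (SD, n = 6 each), with overlap. The counts moved when samples were left out. Without OR cancer 3, the highest, 56 of the 163 and 4 of the 45 still passed, and without OP cancers 1 and 3, the lowest, 27 and 0. Leaving out single cancers also moved the number that fell, to 133 without OP cancer 1, 80 without OP cancer 5, 29 without OR cancer 1, 24 without OP cancer 4, 20 without either OP cancer 6 or OR cancer 2, and 16 without LC cancer 2. The slope of Ccnb1 without OP cancers 1 and 3 was 1.34 (limma adjusted p = 0.00253) and that of Cdk1 1.05 (0.0629). With obesity group in the fit 70 of the 163 and 5 of the 45 passed, and with slide 62 and 2.

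Normal mammary tissue offers samples that the division did not use, although there too the score and the levels share arrays. The highest-scoring tissues, LC normal 2, LC normal 3 and OP normal 3, also differed in array shape. Their array medians lay at -1.75, -2.18 and -1.90 relative to the 75th percentile, against -1.67 to -1.14 in the others. The part of array shape in the slopes was not tested. Over the 8 tissues 28 of 38007 genes rose with the same score (0.0737%) and 1 fell, Tob2, of an antiproliferative gene family (0.00263%, limma adjusted p under 0.05). Named risers were Birc5 with 2.08 per unit, Ccnb1 with 1.79, Kif22 with 1.79, Pttg1 with 1.62, Pclaf, a partner of Pcna, with 1.30, Cdc20 with 1.21, Rrm2 with 1.13, Spc25 with 1.11 and Nuf2 with 1.08. All but Pclaf also rose with the score in the cancers, and 22 of the 28 genes did. Of 162 genes that rose in cancers and could be tested in normal tissue, 155 had a slope above 0 there (95.7%), against 54.3% of all genes with a positive slope in cancers. Of the 45 that fell, 35 were below 0 (77.8%, against 52.1%). Aurkb and Fancd2 had slopes of 0.25 and 0.089 in normal tissue and did not pass, and Lef1 was at 0.49.

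The normal tissue result depended on single samples. Without LC normal 2, which had the highest score, no gene rose and none fell in limma's fit at that threshold, with 1472 above and 722 below 0 at an unadjusted p under 0.05. Without OR normal 2 the counts were 1 rising and 0 falling, without OR normal 1 they were 5 and 0, without LC normal 3 they were 17 and 0, and without OP normal 1 they were 56 and 88. Among immune genes 17 of 18 T and NK cell genes, 11 of 11 macrophage genes and 9 of 9 MHC class II genes had slopes above 0, against 49.2% of all genes, none of them past the threshold. Luminal genes were above 0 in 4 of 12 and adipocyte genes in 5 of 16. The part of cell makeup in this result was not tested.

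**Figure D3:**
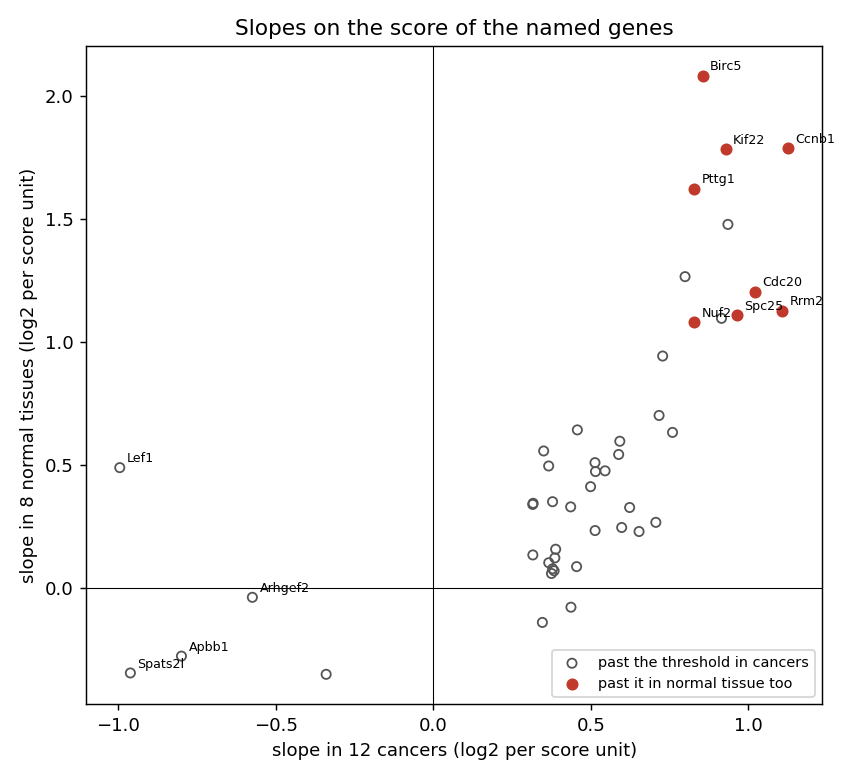
Slope on the score in 12 cancers (horizontal) and in 8 normal tissues (vertical) for the 47 named genes past the threshold in cancers, in log2 units per score unit. Filled points passed in normal tissue too, all of them cell division genes with slopes above 1 there; Lef1 is the gene with opposite signs among those that fell.

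Genes that serve growth and genome upkeep were also mostly higher in high-score cancers, by smaller amounts. Of all genes 47.8% were above 0 and 0.547% rose with the score. DNA repair and checkpoint genes were above 0 in 16 of 16 (median 0.24), and 3 of them rose with the score. Fancd2 averaged 7.75 ± 0.19 in high-score and 7.33 ± 0.18 in low-score cancers, and Brca1, of homologous recombination, 6.99 ± 0.09 and 6.76 ± 0.07 (SD, n = 6 each), both without overlap. Bard1, the partner of Brca1, rose by 0.73 per unit of score (limma adjusted p = 0.0169). Ribosome biogenesis genes and Myc targets were above 0 in 26 of 26 with a median of 0.27, among them Ncl, nucleolin, at 0.44 and Ran at 0.48. Ran was the only 1 of the 26 that rose with the score.

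Cholesterol synthesis genes were above 0 in 21 of 21, against 47.8% of all genes, with a median of 0.21. Of these, 9 were higher at an unadjusted p under 0.05, against 3.24% of all genes. Idi1, an isomerase of the pathway, averaged 11.14 ± 0.40 in high-score and 10.41 ± 0.45 in low-score cancers, and Fdps, farnesyl diphosphate synthase, 13.39 ± 0.40 and 12.75 ± 0.31 (SD, n = 6 each). None of the 21 passed in either fit. In normal tissue 8 of the 21 had a slope above 0, against 50 of 55 cell division genes. Fatty acid synthesis genes were split, with 7 of 13 above 0 and a median of 0.016, and Fasn, fatty acid synthase, was at -0.39 (95% interval -1.25 to 0.47). Hypoxia and glycolysis genes were above 0 in 17 of 19 with a median of 0.32, and none passed in either fit. The largest differences were those of the glucose transporter Slc2a1, at 0.62 (SE 0.32), and the lactate exporter Slc16a3, at 0.61 (SE 0.45). The median of this list was 0.021 on slide 4 and 0.21 without OP cancer 1.

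Genes that restrain the cycle showed no common direction, with 8 of 19 above 0 and a median of -0.16 (-0.045 without OP cancer 1). Txnip, a thioredoxin inhibitor that limits glucose uptake, had 11.21, 11.74 and 12.05 as lowest, median and highest in high-score cancers, against 12.13, 12.50 and 13.73 in low-score cancers. It did not overlap between the groups, and the difference was -0.96 (SE 0.25, limma adjusted p = 0.489), or -0.51 within slide 4. Cdkn1b, p27, averaged 10.92 ± 0.43 in high-score and 11.24 ± 0.42 in low-score cancers, Cdkn1a, p21, 7.24 ± 0.21 and 7.21 ± 0.25, and Cdkn2a, the p16 and p19Arf locus, 9.61 ± 1.73 and 9.83 ± 0.62. Cdkn2a ranged from 7.17 to 12.01 among the high-score cancers. Genes of the G1 cyclins, E2F and Rb family were above 0 in 5 of 9. Ccnd1, cyclin D1, was at -0.20 (95% interval -0.80 to 0.40), and Cdk4, its kinase, at 0.22. Top2a, Mki67, Myc, Esr1 and Erbb2 had no value in this comparison.

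Among genes with a symbol that were lower in high-score cancers, those with the smallest p were Rflnb, an actin regulator, at 13.71 ± 0.44 against 14.57 ± 0.17, Sfxn3, a mitochondrial carrier, at 12.14 ± 0.11 against 12.46 ± 0.12, and Smad7, an inhibitor of TGF-beta signalling, at 10.67 ± 0.18 against 11.08 ± 0.14 (SD, n = 6 each, limma adjusted p = 0.478 for all). Sfxn3 alone of these did not overlap. Lxn, a carboxypeptidase inhibitor, and Tcta each differed by -0.47.

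**Figure D4:**
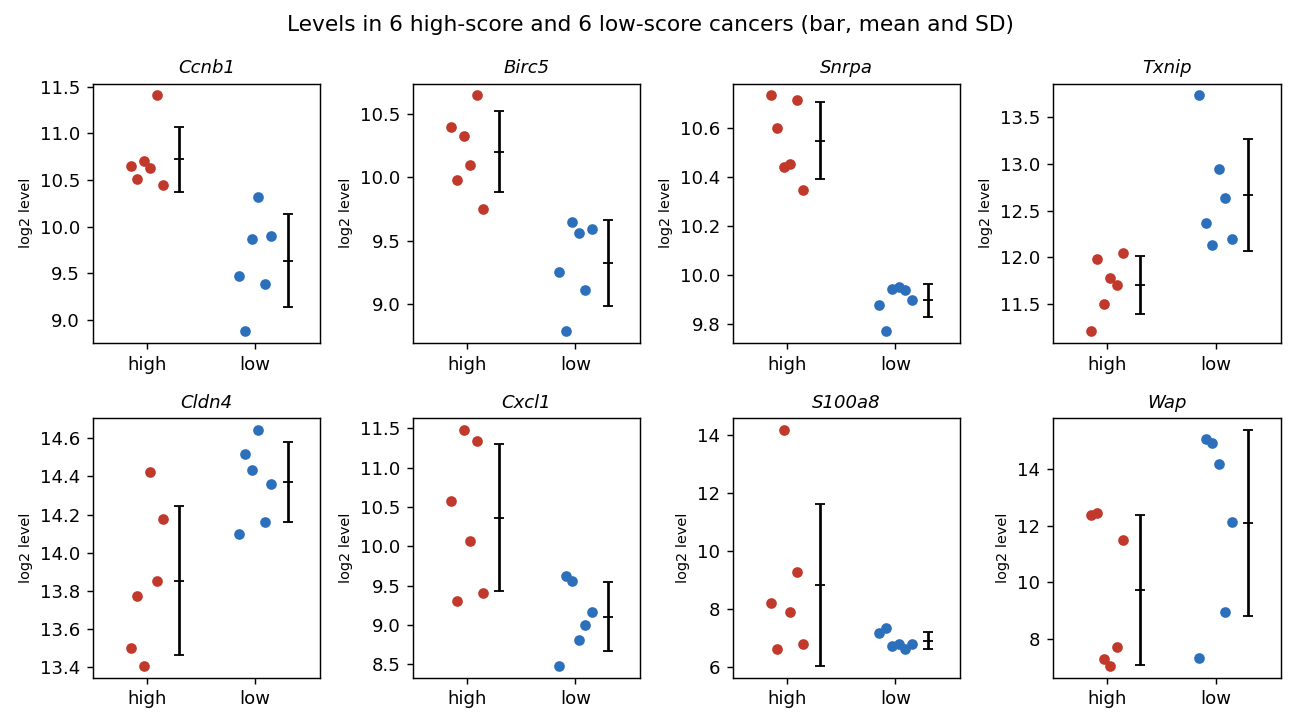
Log2 levels of 8 genes in the 6 high-score cancers (left, red) and the 6 low-score cancers (right, blue), with the mean and SD beside each group. Ccnb1, Birc5 and Snrpa are higher and Txnip lower without overlap, S100a8 is set apart by OP cancer 6 at 14.17, and Wap runs from 7.03 to 12.46 in high-score and from 7.32 to 15.09 in low-score cancers.

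Luminal epithelium genes of the gland were below 0 in 10 of 12 with a median of -0.21, and none passed in either fit. Cldn4, a tight junction protein, had 13.41, 13.81 and 14.42 in high-score cancers and 14.10, 14.40 and 14.64 in low-score cancers. It overlapped, and the difference was -0.51 (SE 0.17, limma adjusted p = 0.597). Krt19 differed by -0.26 and Pgr, the progesterone receptor, by -0.21. Without OP cancer 6 Krt19 differed by -0.15, Pgr by -0.01 and the luminal median was -0.063.

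Milk genes were below 0 in 10 of 11, with a median of -0.23. That median ranged from -0.94 without OP cancer 1 to 0.064 without OP cancer 3 when single cancers were left out. Wap, whey acidic protein, had 7.03, 9.59 and 12.46 in high-score cancers and 7.32, 13.16 and 15.09 in low-score cancers. The groups overlapped, and the difference of -2.38 had a 95% interval of -5.75 to 0.99. The beta-casein gene Csn2 averaged 11.82 ± 3.87 in high-score and 13.42 ± 4.08 in low-score cancers. On slide 4 Wap and Csn2 differed by -5.15 and -4.96, and on slide 1, with 1 cancer of each kind, by 4.16 and 8.71. Myoepithelial genes were above 0 in 4 of 10, against 47.8% of all genes, with a median of -0.098, and none passed in either fit. The contractile gene Cnn1 had the largest difference of the 10, at 8.82 ± 0.57 in high-score and 9.67 ± 0.56 in low-score cancers. Those above 0 were Krt5, Krt14, Lama3 and the contractile gene Actg2.

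Inflammation genes had a median of 0.58, close to that of the mitotic list, with 10 of 12 above 0, and none passed in either fit. Cxcl1, a chemokine that attracts neutrophils, had 9.31, 10.32 and 11.48 in high-score cancers against 8.48, 9.08 and 9.62 in low-score cancers. The highest 4 high-score cancers lay above all low-score cancers, and the difference was 1.26 (SE 0.38, limma adjusted p = 0.556). Cxcl2 differed by 1.71 and Ccl3 by 1.20. S100a8, a neutrophil protein, belongs to the list of mast cells and neutrophils, where 8 of 10 members were below 0. It had 6.64, 8.06 and 14.17 in high-score cancers and 6.62, 6.79 and 7.37 in low-score cancers. The high value was OP cancer 6, and without it the S100a8 difference was 0.85 in place of 1.92. Without OP cancer 6 Cxcl2 differed by 1.01 and Ccl3 by 0.70, and the inflammation median was 0.36.

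OP cancer 6 had the highest mean of all 12 cancers for macrophage, T and NK, B and plasma cell, and MHC class II genes, and for genes of fibroblasts, endothelium, and skeletal muscle, skin and nerve. Its macrophage mean was 13.25 in a range of 10.60 to 13.25 among high-score cancers and 11.03 to 11.81 among low-score cancers. T and NK genes ranged from 7.60 to 9.12 and from 7.68 to 8.05, with 14 of 17 members above 0 and a median of 0.30. Without OP cancer 6 that median was 0.099, the macrophage genes were above 0 in 2 of 11 in place of 11 of 11 (7 of 11 without OR cancer 2), and the cell division genes were above 0 in 53 of 55 as before, with a median of 0.42. Skeletal muscle, skin and nerve genes had a median of 0.26, or 0.10 without it. The muscle troponin Tnni2 averaged 9.93 ± 1.58 in high-score and 8.78 ± 0.50 in low-score cancers, a difference of 1.16, or 0.72 without OP cancer 6.

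In the remaining lists no gene but Lmnb1 passed in either fit. Histone and chromatin genes were above 0 in 9 of 10 (median 0.23), endothelium in 7 of 8 (0.21), adipocytes in 10 of 14 (0.10), fibroblasts and matrix in 10 of 14 (0.13, and -0.091 without OP cancer 6), interferon response in 12 of 21 (0.063) and immediate early genes in 9 of 14 (0.012). B and plasma cells had 3 of 3 above 0 (0.35) and MHC class II 7 of 9 (0.22). Mast cells and neutrophils had 2 of 10 above 0 (-0.12), namely S100a8 and S100a9, and oestrogen and progesterone response 5 of 12 (-0.18). Single cancers moved several of these medians. Without OP cancer 6 the MHC class II median was -0.12, with 2 of 9 above 0, and that of B and plasma cells 0.061. The MHC class II median was -0.078 without OR cancer 2. With single cancers left out, the interferon median ran from -0.16 to 0.20, and that of mast cells and neutrophils from -0.49 to 0.13. That of oestrogen and progesterone response ran from -0.30 to -0.075 (without OP cancer 4). The endothelium median ran from 0.12 (without OP cancer 1) to 0.32. Adipoq, adiponectin, averaged 7.01 ± 0.25 in high-score and 6.93 ± 0.20 in low-score cancers, with a range of 6.72 to 7.44 over all 12 and a mean of 15.23 in normal tissue.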

How the data were processed

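Per the labels' protocols, Cy3-labelled complementary RNA from each sample was read on its own 1-colour Agilent rat array. Per the file headers, the deposited scanner files hold spot and background intensity, and other quality flags of 0 or 1. The processed signal is an intensity the scanner software corrected for background. Feature Extraction is given as 10.7.3.1 per the submitters' processing notes and as 9.5.1.1 per the file headers. The authors' deposited value table is on a log2 scale. It tracked the scanner values (processed signal minus each array's 75th percentile, centred per probe) with r of at least 0.9998. RMA normalization in GeneSpring is stated in the design text, whereas by this r the deposited values follow 75th percentile scaling. As an alternative, the value table is therefore close to that scaling of the processed signal, over 19399 genes.

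Spot medians and local background medians took the place of the planned spot means. They were corrected by normexp (offset 50) and quantile-normalized over 20 arrays. The 41012 probes included 10835 with a symbol, through RefSeq accessions. A probe entered the cancer fits when it was well above background on at least 3 of 12 cancers and carried no outlier mark on a cancer array (249 did). For normal tissue the same was asked of the normal arrays, with at least 2 of 8 well above background. The brightest probe stood for a symbol, which gave 29793 genes, 7098 of them named. A probe without a symbol counts as a gene. All named probes of the 4 score genes were removed, although unnamed probes may include others. Scores used a floor of 1 on the processed signal. The number of arrays limits the precision. The median 95% interval reached 0.246 to either side.

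Fits used limma 3.58.1 in R 4.3.3 (residual degrees of freedom 10, or 6 in normal tissue) with Benjamini-Hochberg adjustment across all genes tested and calls at 0.05. Code was tested on simulated data. Figures used matplotlib 3.10.9. Named genes were the 5 with the smallest p each way, 3 per list, 15 each way by slope and 10 most like the score, plus a fixed set. The slope rule was added after the data were seen. Members and lists were chosen with earlier results of these data known. Alternatives covered scaling, filters, slide, scan day, obesity group, replicate number, depth of detection and leaving out samples.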

Additional observations from a re-analysis of the deposited data

Results flagged for a closer look

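Within each group of 6 cancers, the highest or lowest level of the named genes was set against Dixon's 95% limit. Of 236 groups 16 had a sample beyond it, where chance alone gives about 1 in 20 for independent groups. The named genes were picked partly by their relation to the score, so that rate is no yardstick here. OR cancer 3, the highest score, stood above the other high-score cancers in Ccnb1 (11.41, next 10.704), Spc25 (10.43, next 9.61), Fancd2 (8.13, next 7.74) and Klf6 (14.25, next 14.03). OP cancer 6 stood above them in S100a8 (14.17, next 9.27), S100a9 (14.25, next 9.46) and Cxcl2 (12.42, next 8.94). Also among high-score cancers, OR cancer 2 was low in Cdk4 (11.45, next 11.84) and OP cancer 5 high in Acacb (7.10, next 6.94).

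Among low-score cancers, OP cancer 1 was high in Tob1 (9.60, next 8.62) and low in Stat2 (7.78, next 8.24), and OP cancer 4 was high in Tff3 (8.91, next 7.20). OR cancer 1 was high in Cd5 (7.57, next 7.07), OP cancer 3 in Cxcl2 (7.82, next 7.19) and LC cancer 2 in Ifit3 (7.09, next 6.88). LC cancer 3 was low in Mzb1 (6.48, next 6.81).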

How the results depend on the processing

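In the 6 against 6 comparison the counts past the threshold stayed at 0 in both directions under both 75th percentile scalings, the authors' value table, slide, scan day and obesity group blocks, detection share as a covariate and leaving out the 2 cancers nearest the division. The count of higher genes was 1 with no filter on dim probes, and leaving out single cancers gave 0 to 1 higher and 0 to 0 lower. At an unadjusted p under 0.05 there were 649 to 1209 higher and 598 to 1427 lower over these alternatives. With the continuous score in its place, 163 rose and 45 fell, with 1767 and 2017 at that unadjusted p. Of these continuous counts, chosen for alternatives after seeing the data, 75 and 12 passed with 75th percentile scaling after normexp, 14 fell with that scaling of the processed signal, 65 and 3 passed with a slide block, 74 and 7 with an obesity group block, 87 and 10 with detection share as a covariate, and 27 and 2 without OP cancers 1 and 3. Leaving out single cancers gave 56 to 170 rising and 4 to 133 falling. With the replicate block 3 rose and 0 fell, and in the 6 against 6 comparison 0 and 0 passed with it. Among cancers, replicate numbers 4, 5 and 6 belong to OP cancers only, so this block takes those cancers out of the estimate. Same-numbered cancers had deviations correlated from -0.36 to 0.22. Whether the numbers pair the samples cannot be told from these correlations. In normal tissue, leaving out single tissues gave 0 to 56 rising and 0 to 88 falling, and 75th percentile scaling gave 0 falling. The cause of these shifts was not tested. The 75th percentile scaling after normexp moved the median of all genes to 0.13, from -0.0073. The medians of the 4 cell division lists stayed above 0 in all 22 alternatives. The OP minus OR and LC difference in score lay between -1.21 and -0.18 in 16 alternatives. Dim probes limit the genes tested, and 38944 entered without that filter.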
